A study of Mus musculus with 2 samples.

Results

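The genes described here are 45 lysosomal genes taken by name from a list: hydrolases and other luminal proteins (22 genes), membrane proteins (8 genes) and subunits of the vacuolar proton pump, the v-ATPase (15 genes). The cathepsins were left out of that list. Of the 45, 44 have a row in the merged table of 15364 genes. Atp6v0c, the proteolipid subunit that forms most of the rotating ring of the pump, has no row under that name and is not analysed here.

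Lysosomes break down material delivered by endocytosis and autophagy. Soluble acid hydrolases and their cofactors do this work in the lumen, and a membrane with heavily glycosylated LAMP proteins, lipid carriers and ion channels surrounds it. The v-ATPase acidifies the lumen: its cytosolic V1 sector hydrolyses ATP and its V0 sector, set in the membrane, passes protons. In the adult mouse brain, quiescent neural stem cells are known for a larger lysosomal content than their activated counterparts.

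Hippocampal neural stem cells of male mice (strain C57BL6/J, 6 weeks old) were grown in culture, sorted singly by punctate autofluorescence into 4 gates from Low to High, and profiled by SORT-seq, a plate method that counts 1 tag near the 3' end of each polyadenylated transcript. Activated cells were kept in serum-free medium with FGF-2 and EGF at 20 ng/mL. Quiescent cells had FGF-2 and 50 ng/mL of BMP-4 without EGF, for at least 3 days. Cells in exit from quiescence had gone back to activation medium for 24 h or 48 h, with 0.5 µg/mL of noggin, which binds and blocks BMP-4; the activated and quiescent media are described without it. All 4 cultures were of primary cells of 1 sex grown outside the brain, and the number of mice behind each is not given in the sources used here.

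Each state was 1 culture, so differences between states have no replicate check, and the intervals below cover counting error only. The quiescent and 24 h cultures shared 1 plate, and the activated and 48 h cultures the other: activated against quiescent, 48 h against 24 h and 48 h against quiescent therefore compare plates as well as states, and plate and state cannot be told apart there. The authors' table of cells held 640 cells, 174 quiescent, 151 at 24 h, 151 at 48 h and 164 activated, where the series text gives 47 per condition. The sums per culture ran between 3046628 and 6563487 transcripts. The 8 markers of neural stem cells fixed for the check were all detected, at summed levels of 4341 to 6752 CPM (CPM is a gene's count scaled to the culture's total). Fabp7 alone was at 2152 to 4901 CPM, and Hes5 and Hopx were at only 0.727 and 1.94 CPM at 48 h. Of 15 microglial markers 11 had no row in the merged table, so their level is not known from it. The other 4 summed to 1.25 to 1.97 CPM. Neuronal markers summed to 247 to 438 CPM, of which Map2 alone gave 202 to 425 CPM and Tubb3 41.4 CPM in quiescent cells. Oligodendrocyte markers summed to 75.8 to 169 CPM, of which Cnp alone gave 73.8 to 154 CPM. The part of these markers in the results below was not tested.

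Together the 44 genes gave 5341 CPM in the quiescent culture, 5751 CPM at 24 h, 3798 CPM at 48 h and 3259.6 CPM in the activated culture. The 22 hydrolases and luminal proteins summed to 1668 CPM in quiescent cells, 1973 CPM at 24 h, 1331 CPM at 48 h and 924 CPM in activated cells. The hydrolases stood highest at 24 h, where over the 4 gates their sums of 1875 to 2044 CPM overlapped those of 1558 to 1906 CPM in quiescent cells. The 8 membrane proteins summed to 1492 CPM in quiescent cells, 1672 CPM at 24 h, 984 CPM at 48 h and 823 CPM in activated cells. Lamp1, whose levels are given below, made up the largest part of each of these sums, so summed values of this subgroup lean on that gene. The v-ATPase followed another order, with 2181 CPM in quiescent cells, 2105 CPM at 24 h, 1483 CPM at 48 h and 1512 CPM in activated cells. The pump genes at 48 h and in activated cells overlapped across gates, at 1426 to 1552 and 1434 to 1562 CPM, and those in quiescent and 24 h cells also overlapped, at 2062 to 2352 and 2037 to 2173 CPM. Of the 44 genes, 23 were highest at 24 h (12 hydrolases, 4 membrane proteins and 7 pump genes) and 26 lowest in activated cells (14, 5 and 7). The shares of all genes in these places were not counted. Some of the differences are small: Atp6v1d, with 10 CPM added, had a log2 range of 0.20 over the 4 cultures.

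**Figure D1:**
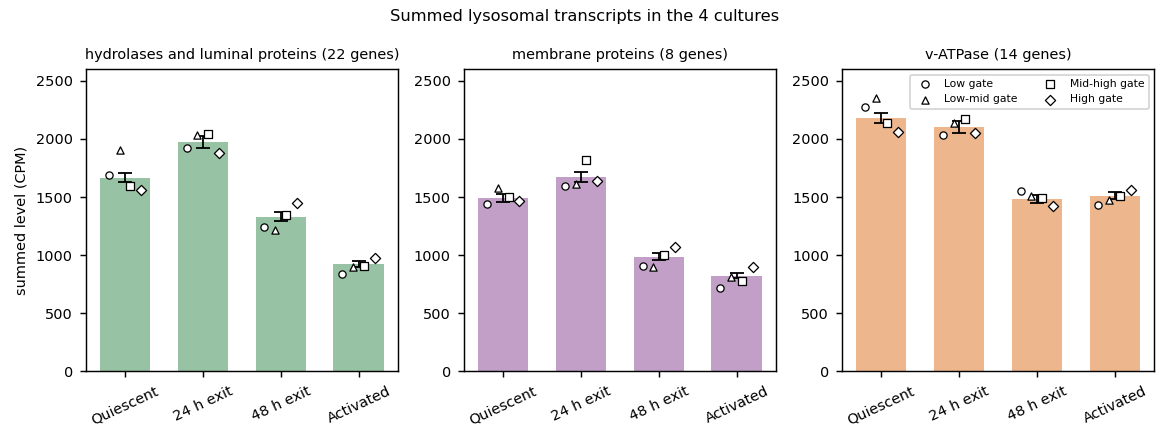
Summed level of each subgroup in CPM (vertical axes from 0) in the 4 cultures; bars are culture sums with 95% Poisson intervals of counting error, and open symbols are the 4 autofluorescence gates of that culture. Hydrolases and membrane proteins stand lowest in the activated culture, while the v-ATPase sums of the 48 h and activated cultures lie together at 1483 and 1512 CPM.

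Activated cells carried a smaller share of lysosomal transcripts than quiescent cells. A gene was counted as past the threshold when CPM with 10 added differed at least 1.5-fold (log2 0.58), with at least 20 counts over both cultures. Among 22 hydrolases and luminal proteins 11 were past it on the lower side and 1 on the higher, among 8 membrane proteins 4 and 0, and among 14 pump genes 5 and 0. Over all 11011 genes tested 14.3% were past it on the lower side and 19.8% on the higher. The median log2 ratio was -0.59 for the hydrolases, -0.58 for the membrane proteins and -0.32 for the v-ATPase, beside 0.07 over all genes.

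Psap, which encodes prosaposin, the precursor of the saposins that help hydrolases reach sphingolipids, was at 118 CPM in activated cells (109.8 to 126 over the 4 gates) and 351 CPM in quiescent cells (309 to 405). Its gates did not overlap, and its log2 ratio was -1.50 (95% counting interval -1.62 to -1.38). The 4 gates are parts of 1 culture, so they do not replicate a difference between cultures. The share of all genes whose gates did not overlap is not given here. Gm2a, the activator protein that lifts GM2 ganglioside out of the membrane for hexosaminidase, was at 28.3 CPM in activated cells (25.4 to 32.7) and 90.2 CPM in quiescent cells (70.2 to 97.1), again without overlap, with a log2 ratio of -1.39 (95% counting interval -1.58 to -1.19). Both genes serve the breakdown of sphingolipids. Smpd1, acid sphingomyelinase, was at 34.6 CPM in activated and 95.6 CPM in quiescent cells. The tripeptidyl peptidase gene Tpp1 was at 78.8 CPM in activated and 195 CPM in quiescent cells. Hexa, the alpha subunit of the hexosaminidase that Gm2a assists, was at 42.1 CPM in activated and 73.5 CPM in quiescent cells, and each of these 3 was lower in all 4 activated gates than in the quiescent gate of the same name.

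The other hydrolases and luminal genes past the threshold on the lower side were Lipa (acid lipase, -0.90), Ids (iduronate sulfatase, -0.88), Grn (progranulin, -0.75), Ppt1 (palmitoyl-protein thioesterase, -0.72), Man2b1 (alpha-mannosidase, -0.65) and Arsb (arylsulfatase B, -0.61), each value a log2 ratio. Not every hydrolase stood lower. Gla, alpha-galactosidase A, was at 15.5 CPM in activated cells (13.2 to 25.6 over gates) and 5.61 CPM in quiescent cells (4.65 to 5.96), with a log2 ratio of 0.71 (95% counting interval 0.43 to 0.96). Gaa, the acid alpha-glucosidase that degrades glycogen, was at 59.6 CPM in activated (58.1 to 61.6) and 55.0 CPM in quiescent cells (44.0 to 72.5), and these gates overlapped. Npc2, the soluble cholesterol carrier, at 122 CPM and 116 CPM in activated and quiescent cells, was also within counting error, with an interval of -0.07 to 0.22 on the log2 scale. Gusb (beta-glucuronidase), Glb1 (beta-galactosidase) and Sgsh (sulfamidase, for heparan sulfate) had intervals that held 0.

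The membrane proteins split. Lamp1, with Lamp2 the most abundant glycoprotein of the lysosomal membrane, was at 398 CPM in activated cells (341 to 440.3 over gates) and 908 CPM in quiescent cells (851 to 959.9). Its log2 ratio was -1.17 (95% counting interval -1.24 to -1.10). Lamp2, which also serves chaperone-mediated autophagy, was at 80.5 CPM in activated (72.8 to 88.5) and 165 CPM in quiescent cells (149.9 to 183), with a log2 ratio of -0.95 (95% counting interval -1.10 to -0.81). Npc1, the transporter that moves cholesterol out of the lysosome, was at 42.5 CPM in activated (36.1 to 45.2) and 114 CPM in quiescent cells (102 to 124), a log2 ratio of -1.24 (95% counting interval -1.42 to -1.06). For none of the 3 did the gates of both cultures overlap, which again is given without the share over all genes. Cln3, a membrane protein lost in a childhood storage disease, was the other one past the threshold, at -0.80 on the log2 scale.

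Cd63, a tetraspanin of late endosomes and exosomes, was at 236 CPM in activated (176 to 253) and 227 CPM in quiescent cells (214 to 241), and its gates overlapped. Scarb2, the receptor that carries glucocerebrosidase to the lysosome, was at 34.0 CPM in activated (24.2 to 38.7) and 22.0 CPM in quiescent cells (16.6 to 28.9), a log2 ratio of 0.46 (95% counting interval 0.21 to 0.70) that did not reach 1.5-fold. Mcoln1, the calcium channel TRPML1, was at 17.1 CPM in activated and 24.5 CPM in quiescent cells. Cd68, typical of macrophages, had 31 counts over all 640 cells and is described no further.

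Within the pump, the sectors had different medians. The 4 V0 members with a row had a median log2 ratio of -0.99, with 3 of 4 past the threshold, and the 8 V1 genes one of -0.21, with 1 of 8 past it. Atp6v0e, the small e subunit, was at 47.5 CPM in activated cells (39.6 to 50.9 over gates) and 166 CPM in quiescent cells (155 to 189.8). Its log2 ratio of -1.61 (95% counting interval -1.78 to -1.45) was the lowest of the 44 genes. Atp6v0b, another proteolipid of the ring, was at 114 CPM in activated (102 to 134) and 245 CPM in quiescent cells (226 to 261), a log2 ratio of -1.04 (95% counting interval -1.16 to -0.91). Atp6v0d1, which couples the ring to the central stalk, had a log2 ratio of -0.95, and Atp6v0a1, the arm through which protons pass, one of -0.32.

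Of the 8 V1 genes 7 had a log2 ratio below 0, and for 5 the counting interval lay below 0. The V1 genes for the head, Atp6v1a and Atp6v1b2, did not reach 1.5-fold between these cultures. On the log2 scale, relative to its mean over the 4 cultures, Atp6v1a stood at 0.15 in quiescent and -0.06 in activated cells. Atp6v1b2 was at 120.0 CPM in activated (108 to 139) and 113 CPM in quiescent cells (100.4 to 131), and Atp6v1d, of the central stalk, at 118 CPM in activated (95.4 to 127) and 118 CPM in quiescent cells (111 to 128). Their log2 ratios were 0.08 (95% counting interval -0.06 to 0.23) and -0.01 (95% counting interval -0.15 to 0.14), and both sets of gates overlapped. Atp6v1f, also of the central stalk, was the V1 gene past the threshold, at -0.71. Of the accessory subunits, Atp6ap1 had a log2 ratio of -0.68 and Atp6ap2, the prorenin receptor, one of -0.32. The sectors differ by few genes and no test was made between them.

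**Figure D2:**
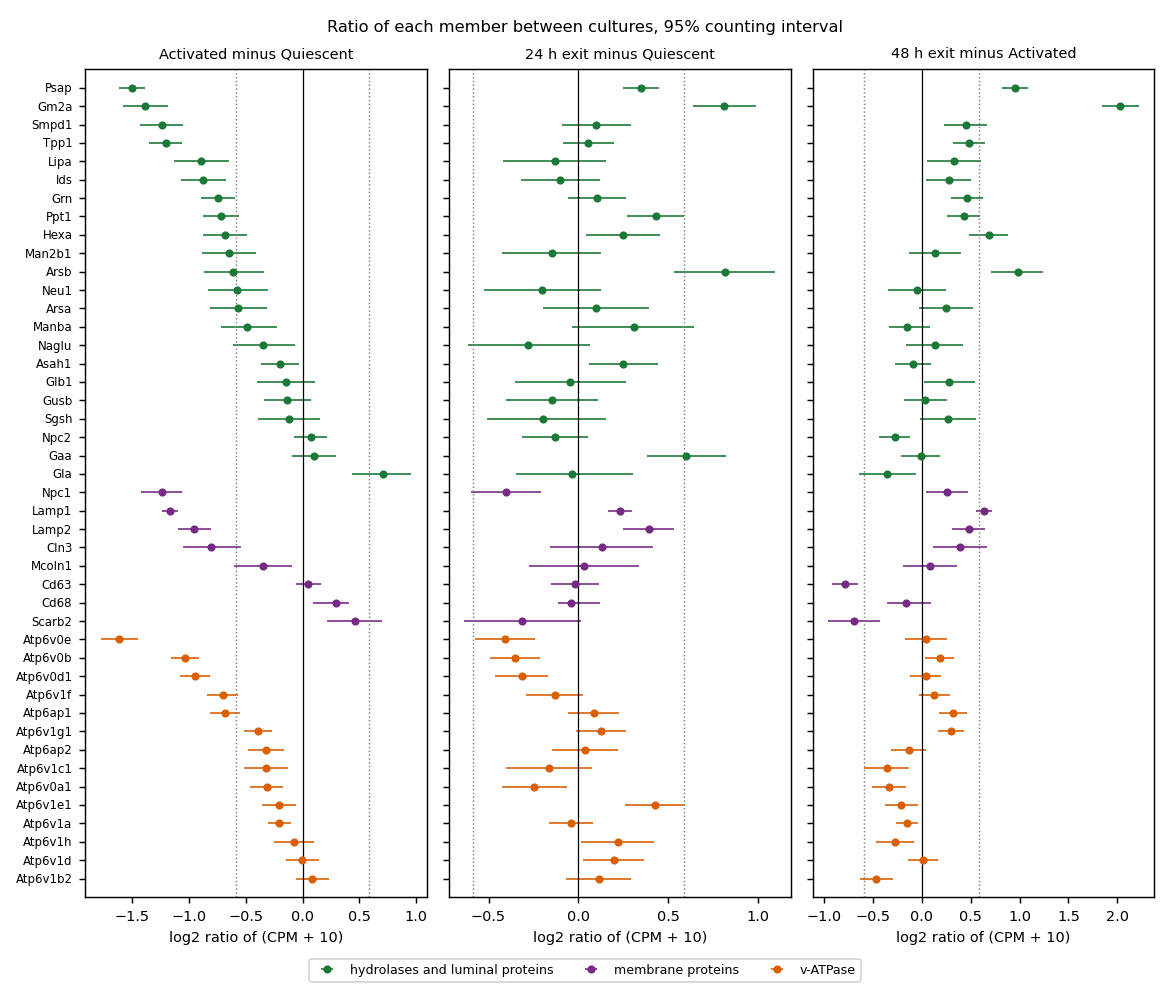
Log2 ratio of CPM with 10 added for each of the 44 genes (rows, sorted within subgroups) in 3 comparisons; points are culture sums, bars are 95% intervals of counting error, and dotted lines mark 1.5-fold. In activated against quiescent cells most points lie left of 0, down to Atp6v0e at -1.61, whereas Gla lies right of the threshold at 0.71.

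These are shares of a culture's transcripts, and the cultures differed in transcripts per cell. The ERCC spike-in RNA counted in the same wells gave another scale; the amount added per well is not given in the sources used here. On it, the ratio of total transcripts in activated over quiescent cells was 1.55. The members summed together were 0.610 times as high in activated as in quiescent cells as a share, and 0.945 times as high per spike-in count. Per spike-in count the hydrolases were at 0.858 times, the membrane proteins at 0.854 times and the v-ATPase at 1.07 times the quiescent level. On that scale the median over all genes was 0.48, that over the hydrolases -0.16 and that of the v-ATPase 0.23, so the pump's direction turned round while its place below the median of all genes did not. Of the 44 genes 13 turned direction on that scale, among them Atp6v0a1 (0.27), Atp6v1a (0.41) and Mcoln1 (0.08), and 6 of the 20 past the threshold on the lower side kept that place. Psap, Gm2a, Atp6v0e and Lamp1 were lower on both scales: per spike-in count activated cells held 0.519 times the Psap, 0.487 times the Gm2a, 0.443 times the Atp6v0e and 0.678 times the Lamp1 transcripts of quiescent cells.

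**Figure D3:**
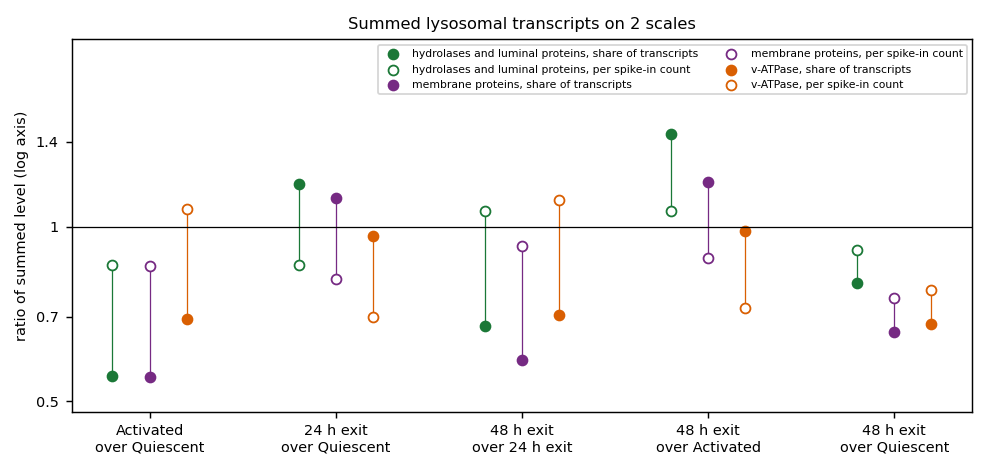
Ratio of the summed level of each subgroup (log axis) in the 5 comparisons of cultures, as a share of all transcripts (filled) and per spike-in count of the same wells (open); a line joins both values of 1 subgroup. Between activated and quiescent cells the v-ATPase lies at 0.693 as a share and 1.07 per spike-in count.

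Many lysosomal promoters carry an E-box, to which the transcription factors TFEB and TFE3 bind. The letters CACGTG, which read the same on both strands, were searched in RefSeq promoters of GRCm38.p6, each 250 bases before and 50 after an annotated start. Of the 45 genes 39 had such a promoter, and 13 of these (33.3%) held CACGTG, beside 8.09% of all 27025 genes with a promoter. The longer TCACGTGA, which contains the first motif and also reads the same on both strands, was held by 6 of 39 (15.4%) and by 1.12% of all genes. By subgroup CACGTG was found for 6 of 21 hydrolases and luminal proteins, 3 of 7 membrane proteins and 4 of 11 pump genes. In activated against quiescent cells the 13 genes with CACGTG had a median log2 ratio of -0.35 and the 25 without it that were measured one of -0.65. The 2 medians, with and without it, were -0.04 and 0.07 at 24 h against quiescent cells, -0.42 and -0.44 at 48 h against 24 h, 0.13 and 0.13 at 48 h against activated cells, and -0.32 and -0.47 at 48 h against quiescent cells. Shown are the promoters of Lamp1, which held the motif most often, of Atp6v0e, the gene with the lowest activated level relative to quiescent cells, and of Gm2a, the gene called between gates below, in which neither motif was found. In lower case they run 5′ to 3′ on the plus strand, with CACGTG in capitals.
Lamp1, chr8:13158911-13159210: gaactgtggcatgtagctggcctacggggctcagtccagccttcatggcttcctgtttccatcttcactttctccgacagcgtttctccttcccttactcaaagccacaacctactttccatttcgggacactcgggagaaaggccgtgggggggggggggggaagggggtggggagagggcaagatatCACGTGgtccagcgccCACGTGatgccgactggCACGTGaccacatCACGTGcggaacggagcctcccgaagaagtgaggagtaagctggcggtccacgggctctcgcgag
Atp6v0e, chr17:26676146-26676445: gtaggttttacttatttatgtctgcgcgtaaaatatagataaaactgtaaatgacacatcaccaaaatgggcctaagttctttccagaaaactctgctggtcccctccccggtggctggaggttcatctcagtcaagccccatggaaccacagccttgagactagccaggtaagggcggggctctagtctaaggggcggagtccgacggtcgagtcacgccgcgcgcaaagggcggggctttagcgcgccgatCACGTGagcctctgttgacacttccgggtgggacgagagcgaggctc
Gm2a, chr11:55097735-55098034: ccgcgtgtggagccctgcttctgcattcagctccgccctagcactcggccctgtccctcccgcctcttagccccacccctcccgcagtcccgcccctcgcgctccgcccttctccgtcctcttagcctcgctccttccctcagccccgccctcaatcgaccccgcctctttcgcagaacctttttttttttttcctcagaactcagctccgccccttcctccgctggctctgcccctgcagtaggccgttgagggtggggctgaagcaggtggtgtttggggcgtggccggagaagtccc
The 4 matches in Lamp1 began 61, 45, 28 and 15 bases before the annotated start, and the single match in Atp6v0e 3 bases after it. Binding was not measured.

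The 24 h and quiescent cultures came from the same plate. At 24 h after the return to activation medium the lysosomal genes stood near their quiescent shares, with a few hydrolases above them. Of 22 hydrolases 3 were past the threshold on the higher side and 0 on the lower; no membrane protein or pump gene was past it in either direction. Over 10462 genes, 4.53% were past the threshold on the higher side and 6.28% on the lower. The medians of the log2 ratio were 0.08 for the hydrolases, 0.03 for the membrane proteins and -0.0014 for the v-ATPase, beside -0.01 over all genes.

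The 3 were Arsb, Gm2a and Gaa. Arsb, which removes sulfate from dermatan and chondroitin sulfate, was at 45.6 CPM at 24 h (38.7 to 53.8 over gates) and 21.6 CPM in quiescent cells (16.7 to 24.9), a log2 ratio of 0.82 (95% counting interval 0.53 to 1.09). Gm2a was at 166 CPM at 24 h (128 to 182) and 90.2 CPM in quiescent cells (70.2 to 97.1), a log2 ratio of 0.81 (95% counting interval 0.64 to 0.98). Gaa was at 88.7 CPM at 24 h and 55.0 CPM in quiescent cells, a log2 ratio of 0.60 (95% counting interval 0.38 to 0.82). In each of the 3 all 4 gates stood higher at 24 h than the quiescent gate of the same name. With spike-in scaling 0 of the 3 stayed past the threshold, with log2 ratios of 0.45 for Arsb, 0.38 for Gm2a and 0.19 for Gaa.

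As shares, Lamp1 and Lamp2 were higher at 24 h in all 4 gates without reaching 1.5-fold, and both turned with spike-in scaling, to -0.23 and -0.05. Lamp1 was at 1068 CPM at 24 h (944 to 1179.8), with a log2 ratio of 0.23 (95% counting interval 0.17 to 0.30), and Lamp2 at 220.1 CPM at 24 h (186 to 265), with 0.39 (95% counting interval 0.25 to 0.53). Psap, at 449.7 CPM at 24 h (401 to 490.1), had a log2 ratio of 0.35 (95% counting interval 0.25 to 0.45), and -0.10 with spike-in scaling. On the lower side Npc1 was at 84.1 CPM at 24 h (79.4 to 99.6), a log2 ratio of -0.40 (95% counting interval -0.60 to -0.21), and Scarb2 at 15.8 CPM (11.4 to 23.9), one of -0.31 (95% counting interval -0.63 to 0.01), an interval that holds 0. Naglu and Neu1, enzymes of heparan sulfate and sialic acid breakdown, were the lowest hydrolases, at 10.2 CPM (7.97 to 12.7) and 16.7 CPM (10.2 to 24.2) at 24 h, against 14.5 CPM (9.36 to 21.4) and 20.8 CPM (14.3 to 33.2) in quiescent cells. Their intervals of -0.61 to 0.06 and -0.52 to 0.13 also hold 0.

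The 4 V0 members with a row all had a log2 ratio below 0, with a median of -0.33, while 5 of 8 V1 genes had one above 0, with a median of 0.12. Atp6v0e was at 123 CPM at 24 h (109.6 to 135 over gates), a log2 ratio of -0.41 (95% counting interval -0.58 to -0.24), and Atp6v0b at 189.5 CPM (157 to 232), one of -0.35 (95% counting interval -0.49 to -0.21). Atp6v1e1, of the peripheral stalk, was at 157 CPM at 24 h (132 to 182) and 114 CPM in quiescent cells (109 to 125), a log2 ratio of 0.43 (95% counting interval 0.26 to 0.59). Atp6v1h, a regulatory subunit of V1, was at 90.3 CPM at 24 h (67.2 to 110.5) and 76.2 CPM in quiescent cells (56.2 to 86.8), one of 0.22 (95% counting interval 0.01 to 0.42). With spike-in scaling both turned, to -0.01 and -0.19, as did 19 of the 43 genes in all. The total set against the spike-in counts was 0.725 times as high at 24 h as in quiescent cells, and per spike-in count the members together were at 0.780 times the quiescent level, against 1.08 times as a share. On that scale the hydrolase median turned to -0.32 and the membrane median to -0.29, where the median of all genes was -0.30. As a share with cells thinned to equal depth the hydrolase median was -0.04.

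Between 24 h and 48 h of exit the summed shares stood lower in every subgroup. At 48 h against 24 h, 5 of 22 hydrolases, 3 of 7 membrane proteins tested and 3 of 14 pump genes were past the threshold on the lower side and none of them on the higher, beside 9.89% and 11.7% of 10324 genes. The median log2 ratios were -0.42, -0.58 and -0.49 for the hydrolases, membrane proteins and v-ATPase, beside -0.03 over all genes, and all 14 pump genes lay below 0. Manba, beta-mannosidase, had the lowest ratio among the hydrolases, at 1.45 CPM at 48 h and 12.1 CPM at 24 h, a log2 ratio of -0.95 (95% counting interval -1.15 to -0.64). Psap (-0.89), Smpd1 (-0.89), Tpp1 (-0.77) and Ppt1 (-0.72) were the other 4. Lamp1, Lamp2 and Cd63 were the 3 membrane proteins, at -0.77, -0.87 and -0.72, and Atp6v0e, Atp6v1e1 and Atp6v0d1 the 3 pump genes, at -1.16, -0.84 and -0.59. Of the hydrolases 5 had a log2 ratio above 0. They were led by Gla, at 9.94 CPM at 48 h (7.42 to 12.8 over gates) and 5.25 CPM at 24 h (2.28 to 7.53), with 0.39 (95% counting interval 0.02 to 0.70), and the intervals of the others, Sgsh, Glb1, Naglu and Gusb, held 0. Gm2a was at 147 CPM at 48 h (100.3 to 188 over gates) and 166 CPM at 24 h, a log2 ratio of -0.17 (95% counting interval -0.33 to -0.0049). Per spike-in count the members together were at 1.04 times the 24 h level, against 0.660 times as a share, and the median of the hydrolases was 0.07 and that of the v-ATPase 0.12 on the log2 scale, both of the opposite sign, where the median of all genes was 0.43. Of 43 genes 24 turned direction on that scale, Gm2a (0.45) and Atp6v0d1 (0.02) among them, and 2 of the 11 past the threshold kept that place, Manba and Atp6v0e.

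Against quiescent cells, 48 h cells had 5 of 22 hydrolases, 2 of 7 membrane proteins and 5 of 14 pump genes past the threshold on the lower side, and 1 hydrolase on the higher, beside 11.6% and 11.9% of 10663 genes. The exception was Gm2a, with a log2 ratio of 0.64 (95% counting interval 0.48 to 0.81). All 4 V0 members with a row were past the threshold: Atp6v0e at -1.57, Atp6v0d1 at -0.91, Atp6v0b at -0.85 and Atp6v0a1 at -0.65. Of the 8 V1 genes 1 was, Atp6v1c1, a regulatory subunit, at -0.68. Among pump genes outside the members, Atp6v0e2 had the highest log2 ratio, at 0.20, and Tcirg1 the lowest, at -0.66. Lamp1 was at 624 CPM at 48 h (547 to 722), a log2 ratio of -0.53 (95% counting interval -0.60 to -0.46), Lamp2 at 116 CPM (109.6 to 121), one of -0.48 (95% counting interval -0.63 to -0.32), and Psap at 237 CPM (202 to 282), one of -0.55 (95% counting interval -0.66 to -0.44). Those 3 were lower than in quiescent cells in all 4 gates, and short of 1.5-fold. Per spike-in count 48 h cells were at 0.812 times the quiescent level of the members together, and as a share at 0.711 times. On the spike-in scale 6 of the 12 genes past the threshold on the lower side kept that place, and so did Gm2a on the higher.

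**Figure D4:**
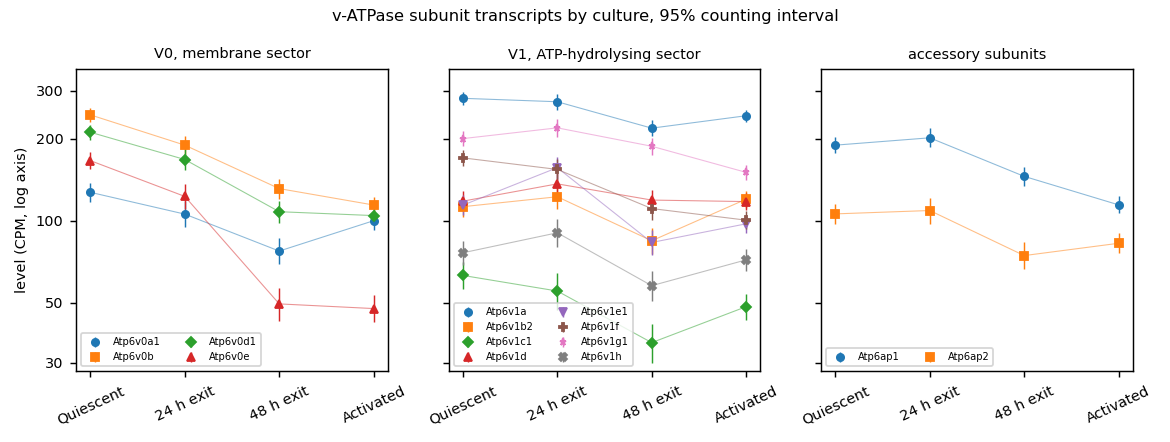
Level of each v-ATPase subunit gene (CPM, log axis) in the 4 cultures, with 95% Poisson intervals of counting error, in 1 panel each for V0, V1 and the accessory subunits; thin lines join the values of a gene. Atp6v0e stands at 166, 123, 49.5 and 47.5 CPM in the quiescent, 24 h, 48 h and activated cultures, while Atp6v1d stays between 118 and 137 CPM.

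Cells at 48 h and activated cells were on the same plate and in the same medium apart from noggin. As shares, the hydrolases were higher at 48 h by their median, and the v-ATPase lay close to its activated level. Past the threshold were 4 of 22 hydrolases on the higher side and 0 on the lower, 1 and 2 of 8 membrane proteins, and 0 and 0 of 14 pump genes, beside 3.99% higher and 7.96% lower of 10780 genes. The median log2 ratio was 0.28 for the hydrolases, 0.17 for the membrane proteins and -0.06 for the v-ATPase, beside -0.08 over all genes.

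Gm2a, at 147 CPM at 48 h and 28.3 CPM in activated cells (25.4 to 32.7 over gates), had the highest log2 ratio of the 44 genes in this comparison, 2.03 (95% counting interval 1.84 to 2.22). Arsb was at 30.8 CPM at 48 h (26.0 to 36.2) and 10.7 CPM in activated cells (6.98 to 12.1), a log2 ratio of 0.98 (95% counting interval 0.71 to 1.24). Psap, at 237 CPM at 48 h and 118 CPM in activated cells, had one of 0.96 (95% counting interval 0.83 to 1.08), and Hexa one of 0.69 (95% counting interval 0.48 to 0.89). In all 4 genes every gate stood higher at 48 h than the activated gate of the same name. Lower at 48 h were Gla, at 9.94 CPM (7.42 to 12.8) against 15.5 CPM in activated cells (13.2 to 25.6), with a log2 ratio of -0.36 (95% counting interval -0.64 to -0.06), and Npc2, at 99.2 CPM (79.3 to 122) against 122 CPM in activated cells (111 to 126), with -0.27 (95% counting interval -0.43 to -0.11); neither reached 1.5-fold.

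The membrane proteins went both ways. Lamp1 was past the threshold at 0.64 (95% counting interval 0.56 to 0.71) and Lamp2 short of it at 0.48 (95% counting interval 0.32 to 0.64), both higher at 48 h in 4 of 4 gates. With spike-in scaling they were at 0.21 and 0.08. Cd63 was at 133 CPM at 48 h (121 to 162 over gates) and 236 CPM in activated cells (176 to 253), a log2 ratio of -0.78 (95% counting interval -0.92 to -0.65). Scarb2 was at 17.2 CPM at 48 h (11.1 to 25.7) and 34.0 CPM in activated cells (24.2 to 38.7), one of -0.69 (95% counting interval -0.95 to -0.42). Both were lower in all 4 gates. Among pump genes Atp6ap1 was at 146 CPM at 48 h (139.8 to 162) and 114 CPM in activated cells (104 to 124), a log2 ratio of 0.32 (95% counting interval 0.18 to 0.47). Atp6v1g1, of the peripheral stalk, was at 188 CPM at 48 h (174 to 210.0) and 151 CPM in activated cells (139.6 to 158), one of 0.30 (95% counting interval 0.17 to 0.43). Both turned with spike-in scaling, to -0.08 and -0.11. On the lower side were Atp6v1b2, at 84.4 CPM at 48 h (77.8 to 92.1), with -0.46 (95% counting interval -0.63 to -0.30), and Atp6v1c1, at 35.6 CPM at 48 h (25.6 to 39.5) and 48.3 CPM in activated cells (47.1 to 49.7), with -0.35 (95% counting interval -0.58 to -0.12). The total set against the spike-in counts was 0.738 times as high at 48 h as in activated cells. Per spike-in count the hydrolases were at 1.06 times, the membrane proteins at 0.881 times and the v-ATPase at 0.724 times the activated level, where the shares gave 1.44, 1.19 and 0.981 times. The hydrolase median turned to -0.03 and the membrane median to -0.14. Of the 5 genes past the threshold on the higher side 2 kept that place, Gm2a and Arsb, and so did both on the lower side.

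Other lysosomal lists showed where the members stood among their neighbours. In activated against quiescent cells the cathepsins had 8 of 10 lower and 1 higher past the threshold (median log2 ratio -1.44). Other hydrolases had 5 of 17 lower and 1 higher past the threshold (median log2 ratio -0.35), other membrane proteins 8 of 14 lower and 0 higher past the threshold (median log2 ratio -0.63) and other pump genes 1 of 8 lower and 0 higher past the threshold (median log2 ratio -0.21). The genes that tag and carry hydrolases by mannose-6-phosphate had 0 of 9 lower and 1 higher past the threshold (median log2 ratio 0.07), and those of TFEB and mTORC1, the kinase complex that controls it at the lysosomal surface, had 2 of 18 lower and 0 higher past the threshold (median log2 ratio -0.21). The extreme genes of these lists were Lgmn, the asparaginyl endopeptidase legumain, at 19.8 CPM in activated and 149 CPM in quiescent cells, and Ctsc, cathepsin C, at 126 CPM in activated and 56.5 CPM in quiescent cells. Their log2 ratios were -2.42 and 1.04.

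At 24 h against quiescent cells the extremes were Rragd, a GTPase that recruits mTORC1 to lysosomes, at 0.62 and Lgmn at -0.62 on the log2 scale. At 48 h against 24 h they were Ctsc at 0.64 and Ctsl, cathepsin L, at -1.69, and against quiescent cells the same genes at 0.86 and -1.67. At 48 h against activated cells they were Ctsb, cathepsin B, at 1.26 and Dmxl1, a regulator of pump assembly, at -0.86. In that comparison the cathepsins had 0 of 10 lower and 6 higher past the threshold (median log2 ratio 0.67).

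The medians over single cells gave the same order of cultures in each subgroup, and since they come from the same counts as the sums they are not separate support. The median share of hydrolase transcripts per cell was 1627 CPM in quiescent cells, 1909 CPM at 24 h, 1289.6 CPM at 48 h and 902 CPM in activated cells. For the membrane proteins it was 1503, 1686, 938 and 791 CPM in the same order, and for the v-ATPase 2152, 2076, 1480.1 and 1502 CPM. The authors' clusters followed the cultures: cluster 1 held 166 of 174 quiescent cells, cluster 0 held 145 of 151 cells at 24 h, cluster 2 held 163 of 164 activated cells, and the 48 h culture was divided, with 109 cells in cluster 3 and 41 in cluster 0.

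Of the 48 h cells, those in cluster 0, where most 24 h cells lay, had higher shares of several members than those in cluster 3. Clusters were made from these transcripts, so the difference is described without a test. Per cell the median hydrolase share was 1393 CPM in cluster 0 and 1254 CPM in cluster 3, that of membrane proteins 1173 and 893 CPM, and that of the v-ATPase 1552 and 1448 CPM. Lamp1 was at 758 CPM in cluster 0 and 577 CPM in cluster 3, Psap at 297 and 217 CPM, Tpp1 at 154 and 101 CPM, and Atp6v0e at 69.4 and 42.8 CPM. Hexa was at 64.7 CPM in cluster 0 and 77.3 CPM in cluster 3. In all, 13 of 22 hydrolases, 7 of 8 membrane proteins and 8 of 14 pump genes were higher in cluster 0. The rest were lower, among them Sgsh, Gla, Glb1 and Mcoln1, with log2 ratios of -0.48, -0.44, -0.42 and -0.34 and counting intervals that held 0. The share of all genes higher in cluster 0 was not counted. By the authors' phase calls, the 22 cells at 48 h called G0 had a median hydrolase share of 1722 CPM, the 21 called G1 one of 1123 CPM, the 50 called S one of 1299 CPM and the 58 called G2M one of 1224 CPM. The v-ATPase medians of those cells were 1556, 1649, 1479.8 and 1373 CPM.

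Autofluorescence of the punctate kind is the property by which the cells were sorted, and the High and Low gates were compared with the 4 cultures as replicates, each of a different state. In the edgeR quasi-likelihood test on summed counts, with culture as a block and Benjamini-Hochberg adjustment over 7792 genes, 1 of 40 members tested was called: Gm2a, higher in the High gate. Over all genes 2.12% were called higher and 0.744% lower. Cd68, Gla, Manba and Sgsh did not pass the filter on low counts. At an unadjusted p below 0.05 there were 8 of 40 members, beside 16.9% of all genes, a share near that of the members.

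Gm2a was at 91.6 CPM in the High and 70.1 CPM in the Low gate of the quiescent culture, at 171 and 128 CPM at 24 h, at 188 and 100.3 CPM at 48 h, and at 25.4 and 25.6 CPM in the activated culture. After TMM scaling the High gate was higher in 4 of 4 cultures, by a log2 of 0.57 in the quiescent, 0.48 in the 24 h, 1.06 in the 48 h and 0.02 in the activated culture. The fitted log2 difference was 0.68 (SE 0.163, adjusted p = 0.0320). The call was not kept in every alternative: with totals alone, without the quiescent culture or without the 48 h culture no member was called. Over all genes 342 of 7792, 144 of 7860 and 19 of 7816 were called in these 3, beside 223 of 7792 in the main test. Without the 48 h culture few genes of any kind were therefore called.

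Lamp1 was at 905 CPM in the High and 851 CPM in the Low gate of quiescent cells, at 1059 and 945 CPM at 24 h, at 722 and 547 CPM at 48 h, and at 440.3 and 341 CPM in activated cells. Its fitted log2 difference was 0.41 (SE 0.117, adjusted p = 0.0656) by the same edgeR test, and it was not called. Arsa, arylsulfatase A, which degrades sulfatide, had 0.86 (SE 0.280, adjusted p = 0.105), Tpp1 0.41 (SE 0.136, adjusted p = 0.114), Psap 0.34 (SE 0.126, adjusted p = 0.160), Cd63 0.33 (SE 0.124, adjusted p = 0.172) and Atp6v0e 0.33 (SE 0.147, adjusted p = 0.246), each higher in 4 of 4 cultures after TMM scaling and not called by edgeR. The same held for Gaa, with 0.39 (SE 0.170, edgeR adjusted p = 0.241), though by only 0.03 in activated cells. In CPM without TMM scaling the High gate was below the Low gate for Psap (339 and 364 CPM), Tpp1 (184 and 207 CPM) and Atp6v0e (157 and 171 CPM) in quiescent cells. It was also below for Cd63 (221 and 223 CPM) at 24 h and for Gaa (58.1 and 58.2 CPM) in activated cells. Lamp2 had 0.13 (SE 0.128, adjusted p = 0.677) by edgeR, higher in 3 of 4 after that scaling. With the slope over all 4 gates in place of the outer gates, 5 of 41 members were called by edgeR, all higher toward the High gate, beside 4.76% of 8702 genes called in that direction. They were Lamp1 (edgeR adjusted p = 0.00205), Gm2a (0.00288), Tpp1 (0.0177), Cd63 (0.0303) and Arsa (0.0380). The slope fit takes the 4 gates of a culture as separate values, with 11 residual degrees of freedom against 3 for High against Low. Its p-values therefore measure the spread of gates about a line within these cultures, and are not firmer evidence over cultures.

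The subgroups had like medians between gates: 0.13 for 19 hydrolases, 0.13 for 7 membrane proteins and 0.13 for 14 pump genes, beside -0.01 over all genes. Of the 40 members 30 were higher in the High gate and 10 lower after TMM scaling. With totals alone the median of all genes was -0.16 and 14 of 40 members were higher. Of the cathepsins 2 of 9 were called higher, with a median of 0.40. High-gate cells also held more RNA: transcripts per spike-in count were 107 in the High and 53.7 in the Low gate of quiescent cells, 73.2 and 44.9 at 24 h, 114 and 64.8 at 48 h, and 167 and 81.2 in activated cells. The part of cell size in the gate differences was not tested.

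No member was called for a slope over the gates that differed between cultures by edgeR's test (0 of 41, beside 0.988% of 8702 genes). At an unadjusted p below 0.05 in that test there were 2 of 41 members, and the share of all genes at that cut was not counted. With totals alone, an alternative chosen after seeing the data, again 0 of 41 were called, beside 119 of 8702 genes. Here too the gates of a culture stand in for replicates. Across single cells the hydrolase share and autofluorescence had Spearman's rho of -0.14 over 174 quiescent cells, 0.02 over 151 cells at 24 h, 0.24 over 151 cells at 48 h and 0.29 over 164 activated cells. For the membrane proteins these were 0.03, 0.05, 0.29 and 0.30, and for the v-ATPase -0.16, 0.02, -0.07 and 0.11. Cells of 1 culture share a plate and a library, and their total transcripts also went with autofluorescence, with rho of 0.52, 0.34, 0.49 and 0.70 in the same order.

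**Figure D5:**
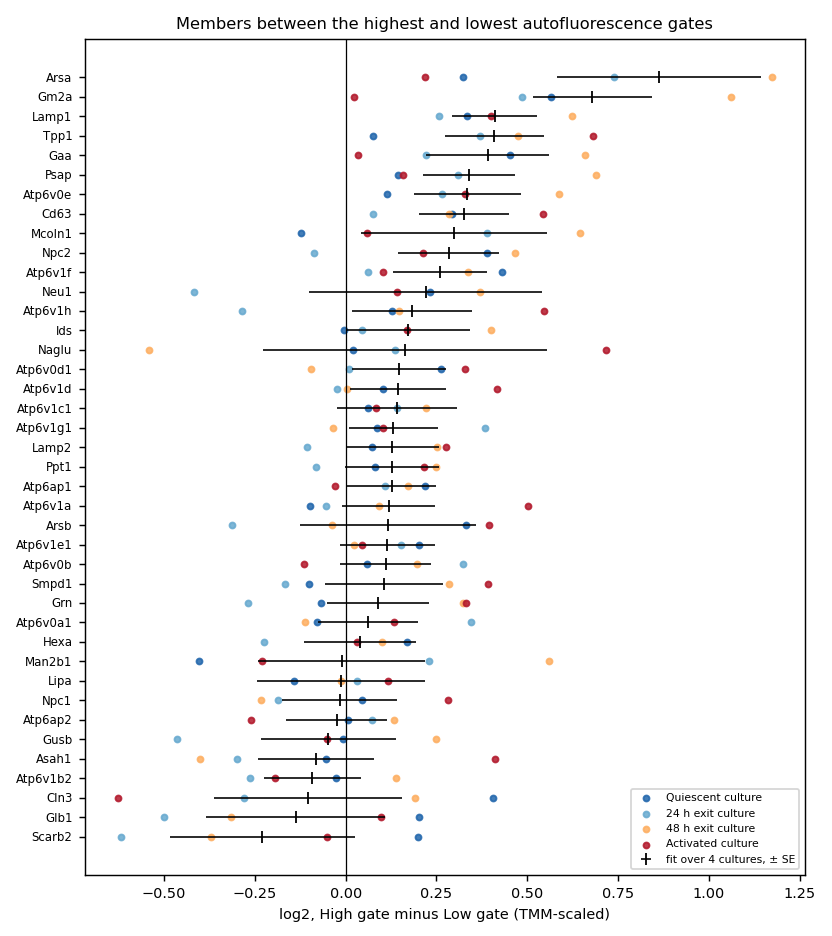
Log2 difference between the High and Low gates for the 40 members tested (rows, sorted by the fit); coloured points are the 4 cultures after TMM scaling with 10 CPM added, and black bars are the fit over the cultures with its SE. Gm2a, the member called, has all 4 cultures right of 0, with the activated culture nearest to it at 0.02.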

How the data were processed

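Transcripts of single sorted cells on 2 plates of 384 wells were measured, with 4 cultures and 4 autofluorescence gates (Low, Low-mid, Mid-high, High). Per the file headers and values, the deposited tables hold expected counts of transcripts, corrected by the authors for molecules that share 1 of 4096 identifiers; undoing that correction gave whole numbers to within 4.79e-05. The submitters' processing notes name BWA 0.7.15, R 4.2.0 and Seurat 4.1.1, without their roles, and the genome build used is not given in the sources used here. The deposited per-cell table gives condition, gate, phase, cluster and autofluorescence intensity in arbitrary units; plates pair with cultures by it. No doublet caller was run, since each well was sorted to hold 1 cell, and the cells the authors kept were used without a further filter.

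Counts were summed per culture and per gate and divided by the total to give CPM (Python 3.11.15, pandas 2.3.3). Log2 ratios have 10 CPM added, which understates the change of low genes. Intervals for ratios are exact conditional binomial, and those for levels exact Poisson, at 95%. Genes with under 20 counts over both cultures were not compared. CPM of a 3' tag is not divided by length. For genes named in full the range over gates is given. Gates were compared with edgeR 4.0.16 (quasi-likelihood, TMM, its filter on low counts, culture as block, limma 3.58.1) on sums rounded to whole numbers, so gate levels there can differ in the last digit, at an adjusted p below 0.05; DESeq2 1.42.0 was an alternative. With culture as a block, the p-values of High against Low set the mean difference against its spread over the 4 cultures, which differ in state. In edgeR that spread had 3 residual degrees of freedom and was moderated with information from all genes (median prior degrees of freedom 16.4).

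The members and lists were chosen with earlier results of these data known. All members may be named; given in full are, per subgroup, the 2 with the largest log2 ratio in each direction in activated against quiescent, 24 h against quiescent and 48 h against activated cells, among those with at least 100 counts, with Lamp1, Lamp2, Psap and each member called between gates. From the other lists the extreme gene in each direction is named. Other members named, and those singled out between the 48 h clusters, were chosen after their values were seen. Alternatives tried were 1 CPM added, a minimum of 100 counts, other totals, TMM, spike-in scaling, the mean of cells, cells thinned to 12751 transcripts, G0 and G1 cells alone, and each gate or culture left out.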

Additional observations from a re-analysis of the deposited data

Results flagged for a closer look

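Wells outside the authors' table of cells also held transcripts of the members. On the plate of the quiescent and 24 h cultures 59 such wells summed to 136658 counts, in which the members made up 5147.51 CPM. On the plate of the activated and 48 h cultures 69 such wells summed to 152676 counts, with 4201.05 CPM of members. These wells entered no comparison because no culture is given for them. Of the 40 members tested between gates, none had 1 culture whose High minus Low difference lay apart from those of the other cultures beyond Dixon's critical value for 4 values at 95%.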

How the results depend on the processing

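With spike-in scaling, the median log2 ratio turned round for the v-ATPase in activated against quiescent cells (0.23), for the hydrolases and membrane proteins at 24 h against quiescent cells (-0.32 and -0.29), for the hydrolases and the v-ATPase at 48 h against 24 h (0.070 and 0.12) and for the hydrolases and membrane proteins at 48 h against activated cells (-0.029 and -0.14). On that scale activated against quiescent cells gave -0.16 for the hydrolases and -0.15 for the membrane proteins, and 24 h against quiescent cells -0.43 for the v-ATPase. The membrane proteins were at -0.068 at 48 h against 24 h, the v-ATPase was at -0.45 at 48 h against activated cells, and at 48 h against quiescent cells the 3 subgroups were at -0.11, -0.30 and -0.26. Scaling moved the median of all genes too, to 0.48, -0.30, 0.43, -0.34 and 0.10 in activated against quiescent, 24 h against quiescent, 48 h against 24 h, 48 h against activated and 48 h against quiescent cells. Members past the threshold with spike-in scaling were 7 higher and 6 lower in activated against quiescent cells, where the shares gave 1 and 20. They were 0 and 5 at 24 h against quiescent cells (shares 3 and 0), 4 and 2 at 48 h against 24 h (0 and 11), 2 and 8 at 48 h against activated cells (5 and 2) and 1 and 6 at 48 h against quiescent cells (1 and 12). Over the other alternatives the counts on the lower side were 17 to 24, 0 to 0, 8 to 17, 1 to 5 and 8 to 15 in the same order of comparisons, and those on the higher side 1 to 3, 2 to 3, 0 to 2, 5 to 9 and 0 to 2. The share of all genes past the threshold was not counted with spike-in scaling or in these alternatives. The counts there therefore do not set the members apart from other genes.

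With cells thinned to equal depth the hydrolase median at 24 h against quiescent cells was -0.040, and as the mean of cells 0.023. With 1 CPM added it was -0.80 in activated against quiescent cells and -0.56 at 48 h against 24 h, and the membrane median -0.72 in the second of these. With at least 100 counts the membrane median was -0.80 in activated against quiescent cells. With totals that left out mitochondrial and ribosomal protein genes, the hydrolases were at 0.14 at 24 h against quiescent cells and 0.41 at 48 h against activated cells, and the v-ATPase at 0.072 at 48 h against activated cells and -0.32 at 48 h against quiescent cells, the first of these of the opposite sign to the reported median. Leaving out 1 gate at a time gave -0.51 to -0.40 for the v-ATPase at 48 h against 24 h. Apart from the spike-in scaling, where the common shift is by construction, the cause of these moves was not tested.

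Between gates the edgeR test called 1 member higher. Totals alone, no block for culture and DESeq2 called 0, no filter 3 and the slope over the gates 5. Leaving out 1 culture at a time gave 0 to 1. Over all genes the edgeR test called 223 of 7792, totals alone 342 of 7792, no block 0 of 7792 and DESeq2 117 of 7792. No filter called 414 of 14673, the slope 633 of 8702, and leaving out 1 culture 19 of 7816 to 183 of 8538. Of the 40 members, DESeq2 gave 18 no adjusted p. Lamp2 turned to -0.033 with totals alone. No paired analysis was possible because each plate is a single sample with no replicate number that pairs it with the other; culture was the block between gates.

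The main limits are 1 culture per state, plates that coincide with states in 3 of the 5 comparisons, and low counts: Cd68, with 31 counts over all cells, Gla, Manba and Sgsh did not pass the filter of the High against Low test. Without that filter all 44 members were tested.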
